A study of Mus musculus with 6 samples.

Results

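Fpr1 and Fpr2 encode formyl peptide receptors, and these 2 genes of the 24394 gene symbols in the files were followed in bone marrow-derived macrophages (BMMs). They were chosen by name, after both had been seen to be higher in the comparison described here, so their own difference between the groups is given as a description without a test. BMMs are cells grown from mouse marrow with macrophage colony-stimulating factor, here from C57BL/6 mice of postnatal day 28 with 50 ng/ml of the factor for 7 days. RNA-seq covered 3 control cultures and 3 cultures given 5 cartilage fragments per macrophage for 24 h, called stimulated below. The marrow came from the mice whose femoral head cartilage was crushed to make the fragments, and neither the labels nor the methods say whether the libraries of a group came from separate animals, so the spread between them may be technical. No group received another particle, so a response to cartilage and a response to any particle cannot be told apart. The series asked how contact with cartilage debris changes the transcripts of macrophages.

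Formyl peptide receptors are G protein-coupled receptors of phagocytes. They bind peptides that start with a formylated methionine, which are made by bacteria and by mitochondria and are set free from damaged cells. Fpr1 binds short formylated peptides tightly, and Fpr2 has a broad range of ligands that takes in annexin A1, serum amyloid A, cathelicidin peptides and lipoxins. Both signal through inhibitory G proteins to phosphoinositide 3-kinase, phospholipase C, Rac and the phagocyte oxidase, which drive migration and the oxidative burst. In mice the family is enlarged, and several of its members are best known from the vomeronasal organ.

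The genes lie next to each other on chromosome 17 of mm10. Fpr1 (transcript NM_013521, 1323 bases) was listed at chr17:17876471-17883939 on the minus strand, and Fpr2 (NM_008039, 1296 bases) at chr17:17887824-17893952 on the plus strand. They are read away from each other, with starts 3885 bases apart. Each has its coding sequence in its last exon, of 1092 bases in Fpr1 and 1053 bases in Fpr2 by the GENCODE annotation of the same build. The coding sequences were 70.4% identical over 1038 aligned bases, and no stretch of 100 bases, the read length, was shared between the annotated transcripts, of which the longest shared run was 50 bases. Fpr2 was closer to Fpr3, with 88.1% identity over 1053 bases and a longest shared run of 94 bases.

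The 250 bases before each start are shown because both transcripts were higher with fragments. The 2 genes have separate promoters that lie back to back, a short interval apart. The sequences are from RefSeq on GRCm38.p6, on the strand of the gene, and capitals mark matches to the motifs searched. Fpr1 lies on the minus strand, so its upstream part is chr17:17883940-17884189, and that of Fpr2 is chr17:17887574-17887823 on the plus strand.
Fpr1: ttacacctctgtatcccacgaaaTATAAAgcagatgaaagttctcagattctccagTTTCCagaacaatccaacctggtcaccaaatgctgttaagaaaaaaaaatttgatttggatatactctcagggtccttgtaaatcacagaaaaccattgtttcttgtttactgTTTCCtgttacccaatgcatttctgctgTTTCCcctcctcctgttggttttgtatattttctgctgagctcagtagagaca
Fpr2: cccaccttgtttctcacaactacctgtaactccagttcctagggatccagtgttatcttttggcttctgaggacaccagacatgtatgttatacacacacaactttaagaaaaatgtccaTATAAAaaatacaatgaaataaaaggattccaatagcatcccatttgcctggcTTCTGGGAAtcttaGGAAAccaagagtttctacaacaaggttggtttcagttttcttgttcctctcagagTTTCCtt

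Both upstream parts were poor in G and C, at 38.4% for Fpr1 and 38.8% for Fpr2, against a median of 52.4% over 32851 promoters. Motifs were searched on both strands in windows that also held the first 50 bases after the start. The letters of the TATA box, TATAAA, occurred 1 time in each window, from base -227 in Fpr1 and from base -130 in Fpr2. No match lay nearer to either start, and 13.6% of all promoters held these letters anywhere in the window. A STAT palindrome, TTCNNNGAA, occurred in Fpr2 at bases -77 to -69 and not in Fpr1, and 8.3% of all promoters held it. The kappa-B half-site, TTTCC, occurred 3 times in Fpr1 and 2 times in Fpr2, 1 of these on the opposite strand, but 61.3% of all promoters held it. None of these matches overlapped another. The PU.1 core GAGGAAG (in 13.6% of promoters), the C/EBP site TTGCNNAA (in 10.8%) and the AP-1 site TGANTCA (in 7.81%) had no match in either window. These are matches of letters and were not measured as bound sites. The shares are over all promoters, not matched for G and C content, and the position of a match was not weighed.

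Abundance in the files is given as FPKM, a fragment number divided by transcript length and by library depth, for reference transcripts and for transcripts that Cufflinks assembled in that library alone. The value of a gene was taken as the sum over its reference and assembled transcripts. From the coverage beside each FPKM, 733620 to 768635 fragments per control library and 692269 to 744783 per stimulated library lay behind the values. The methods state a far larger number of reads per sample, and the intervals here rest on the fragments that the deposited values imply. Pairs of libraries did not always group by treatment: by the mean chi-square of fragments over genes, control replicate 3 was nearer to stimulated replicate 2 (2.32) than to control replicates 1 and 2 (2.92 and 2.88), and stimulated replicate 3 was nearer to control replicates 1 and 2 (2.08 and 2.01) than to stimulated replicates 1 and 2 (2.23 and 2.96). The depth is low for genes at a few FPKM, and the 95% intervals below are exact Poisson intervals on whole fragments, which cover counting error only.

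Fpr1 was the more abundant of the pair in control macrophages. It stood at 45.3 FPKM in control replicate 1, 40.8 in control replicate 2 and 34.0 in control replicate 3. With fragments it stood at 148 FPKM in replicate 1, 174 in replicate 2 and 107 in replicate 3. All stimulated libraries were above all controls, and the lowest stimulated value was 2.37 times the highest control value. The means were 40.0 ± 5.7 FPKM in controls and 143 ± 33.8 FPKM with fragments (SD, n = 3 each), a ratio of 3.58. On the scale of log2(FPKM + 0.1) the difference was 1.82 ± 0.238 (SE). The number of fragments behind these values was between 28 and 39 in a control library and 123, 139 and 94 in the stimulated ones.

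Fpr2 was lower than Fpr1 in every control library, and its ratio to Fpr1 in FPKM was higher after stimulation. It stood at 16.7 FPKM in control replicate 1, 20.9 in control replicate 2 and 14.9 in control replicate 3. With fragments the values were 149.9, 140.3 and 109 FPKM in replicates 1, 2 and 3. Again the groups did not overlap, and the lowest stimulated value was 5.2 times the highest control value. The means were 17.5 ± 3.07 FPKM in controls and 133 ± 21.6 FPKM with fragments (SD, n = 3 each), a ratio of 7.6. The log2 difference was 2.92 ± 0.2 (SE). The controls rested on 14, 17 and 12 fragments, so that the 95% counting interval of control replicate 3 ran from 7.73 to 26.1 FPKM. The stimulated libraries held 99, 92 and 69 fragments, and the interval of the lowest, replicate 3, ran from 84.4 to 137 FPKM. Without control replicate 3 the log2 differences of Fpr1 and Fpr2 were 1.71 and 2.81, and without stimulated replicate 3 they were 2.01 and 3.06.

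**Figure D1:**
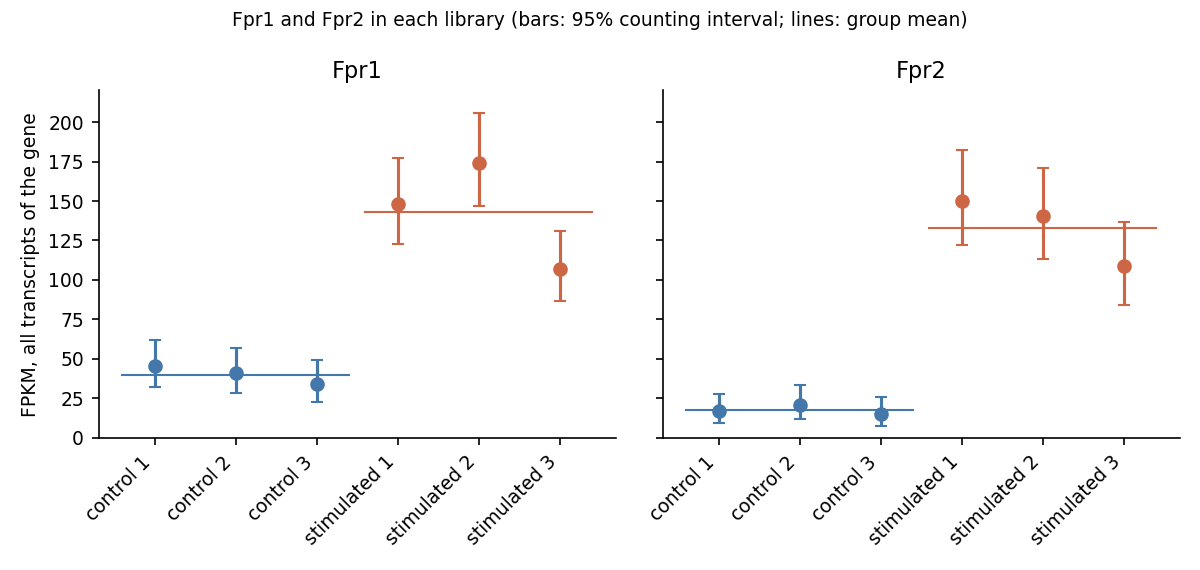
FPKM of Fpr1 (left) and Fpr2 (right) in each of the 6 libraries, summed over the transcripts of the gene. Points are libraries, error bars the 95% Poisson intervals of the fragments, and lines the group means, which go from 40.0 to 143 for Fpr1 and from 17.5 to 133 for Fpr2, with no overlap between the groups.

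Among the 10398 genes that averaged 1 FPKM or more over the libraries, Fpr2 ranked 63 and Fpr1 ranked 228 by log2 difference. As a background, 9.03% of these genes had all stimulated libraries above all controls and 6.88% had all of them below. In the limma test across all genes, at an adjusted p under 0.05, 33 genes were called higher (0.317% of those tested) and 8 were called lower (0.0769%). The 2 receptor genes were selected on this contrast, so these shares are printed for scale and nothing is read from them for Fpr1 and Fpr2. In these libraries of whole cultures, more transcript per cell and more cells of a type that carries it cannot be told apart.

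The gap between the pair narrowed with fragments. In controls Fpr1 exceeded Fpr2 by more than the spread between libraries, with 40.0 ± 5.7 against 17.5 ± 3.07 FPKM, although the counting intervals of the 2 genes overlapped in control replicates 2 and 3. After stimulation the levels, 143 ± 33.8 and 133 ± 21.6 FPKM, did not differ beyond their spread. Counted as fragments, Fpr2 stayed below Fpr1 in the stimulated libraries too, at 0.805, 0.665 and 0.736 of its number in replicates 1, 2 and 3. Fpr2 made up 26.9%, 33.9% and 30.5% of the summed FPKM of both genes in control replicates 1, 2 and 3. With fragments its share was 50.3%, 44.6% and 50.3%. Every stimulated library had a larger share of Fpr2 than every control library. Counted as fragments, without scaling to length, the mean share went from 29.9% ± 3.46 to 42.3% ± 2.33 (SD, n = 3 each), again without overlap. On reference transcripts alone the mean shares were 30.4% ± 3.5 and 34.2% ± 3.52 of the FPKM, and the groups overlapped. A share of Fpr2 without overlap between the groups was therefore seen only where fragments given to assembled transcripts were counted. In the controls all Fpr2 fragments were given to the reference transcript. Leaving out assembled transcripts thus lowers the Fpr2 values of the stimulated libraries alone.

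**Figure D2:**
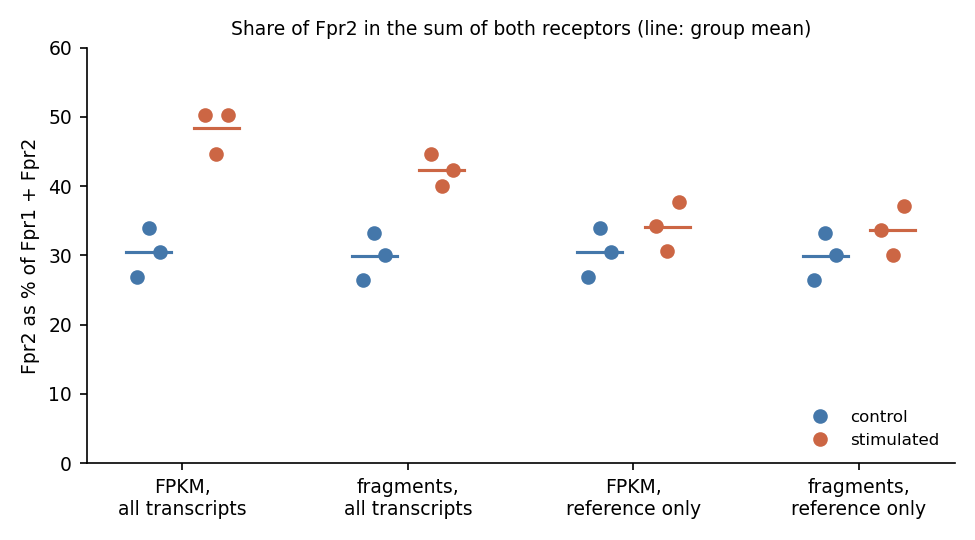
Fpr2 as a percentage of the sum of Fpr1 and Fpr2 in each control (blue) and stimulated (orange) library, as FPKM or as fragments, over all transcripts or over reference transcripts alone. Lines are group means. The groups are apart over all transcripts, with mean shares of 30.4% and 48.4% of the FPKM, and overlap on reference transcripts alone, with 30.4% and 34.2%.

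At the Fpr2 locus each stimulated library listed 1 or more assembled transcripts with the same span as the reference transcript, and no control library listed any. In replicate 1 this was a transcript of 883 bases at 72.9 FPKM, beside 77.1 FPKM of the reference transcript. In replicate 2 a transcript of 883 bases stood at 32.8 FPKM and one of 981 bases at 30.6 FPKM, beside 77.0 FPKM of the reference. In replicate 3 a transcript of 981 bases stood at 58.5 FPKM, beside 50.2 FPKM of the reference. Assembled transcripts thus took 37.0%, 35.3% and 45.3% of the Fpr2 fragments of these libraries, and 48.6%, 45.1% and 53.8% of the FPKM, since a short transcript gets more FPKM for a fragment. The reference transcript by itself stood at 17.5 ± 3.07 FPKM in controls and 68.1 ± 15.5 FPKM with fragments (SD, n = 3 each), a log2 difference of 1.94 ± 0.25 (SE), also without overlap. The controls held 12 to 17 fragments at this locus against 69 to 99, and whether so few fragments would have let such a transcript be assembled in a control was not tested.

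The length of 883 bases is that of an annotated transcript of the gene. GENCODE lists Fpr2-202 with exons at chr17:17887824-17887899, chr17:17892733-17892833 and chr17:17893247-17893952, which add up to 883 bases. It lacks the segment chr17:17892834-17893246, of 413 bases, which lies inside the last exon of the full-length transcript, and 413 is also the difference between the reference transcript in the files and the shorter assembled one. The segment is coding sequence in the full-length transcript, and its 413 bases leave a remainder of 2 on division by 3. Fpr2-202 is annotated with 144 coding bases, against 1053 in the full-length transcript. The ends of the segment are shown because they define this form, with 15 bases on either side of each end, on the plus strand, and capitals for the bases inside the segment. The left end lies at chr17:17892819-17892848 and the right end at chr17:17893232-17893261.
left end: tggatcctctcaatgGTGGTTGTCTCCATC
right end: CTTGACTACTGTTAGaattcctggaggaga

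The segment begins with GT and ends with AG, the letters found at the ends of most introns. The files give the span and length of an assembled transcript but not its exons, so that the match to Fpr2-202 is one of length and span. The length of 981 bases, 315 fewer than the reference, matched none of the annotated transcripts of the family on this chromosome that were compared. At the Fpr1 locus a single assembled transcript was listed, in stimulated replicate 3. It had 1983 bases, began at position 17875811 and so ran 660 bases past the 3′ end of the reference transcript, and stood at 24.2 FPKM. The reference transcript of Fpr1 stood at 83.1 FPKM there and carried the status LOWDATA, which Cufflinks gives where it judged the fragments too few or the locus too complex, while every other transcript of the pair was OK. On reference transcripts alone the log2 difference of Fpr1 was 1.7 ± 0.346 (SE), against 1.82 over all transcripts.

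**Figure D3:**
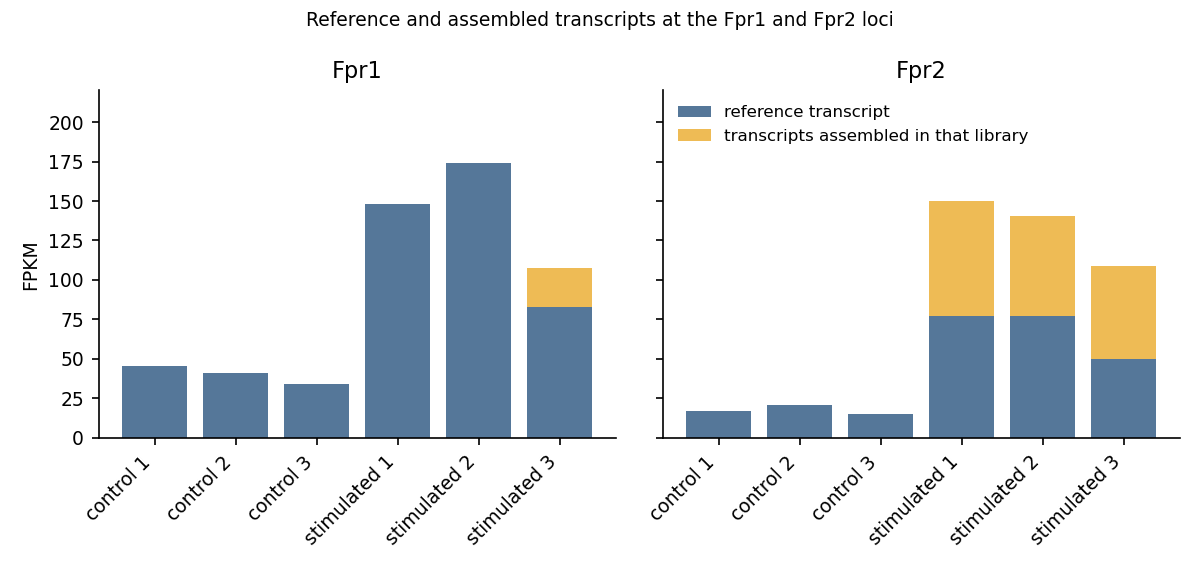
FPKM of the reference transcript (blue) and of the transcripts assembled in that library (yellow), stacked, for Fpr1 (left) and Fpr2 (right). Assembled transcripts at Fpr2 are present in the 3 stimulated libraries, at 72.9, 63.3 and 58.5 FPKM, and in no control library, and at Fpr1 in stimulated replicate 3 alone, at 24.2 FPKM.

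The other receptor genes of the family that the files list were not detected. Fpr3 (chr17:17970458-17971677), Fpr-rs3, Fpr-rs4 and Fpr-rs6 were listed at 0 in all 6 libraries, and Fpr-rs7 was not analysed here. A limit of 3 fragments in a library allows at most 3.85 to 4.28 FPKM for Fpr3 and 5.09 to 5.67 FPKM for Fpr-rs4. This limit is for a single library, and a level below it could have gone unseen in any single one. All 6 libraries were at 0, and the lower limit that they set together was not computed. A level near that of Fpr2 in controls would have been detected. Fpr3 starts with an annotated exon inside the Fpr2 gene, and in control replicate 2 and in the stimulated libraries Cufflinks placed both symbols in 1 locus. The listed Fpr3 transcript lacks that exon.

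Within 250000 bases of the pair the files list 10 other genes, and 9 of them were at 0 in every library. These were Fpr3 and Fpr-rs4, the hyaluronan synthase gene Has1, 3 vomeronasal receptor genes and 3 microRNA genes. MicroRNA genes are not expected to give fragments in libraries of this kind, so their 0 says nothing of their level. The tenth was Spaca6, a gene of sperm and egg fusion, at 0 in the controls and in stimulated replicate 3 and at 3.01 and 4.7 FPKM in stimulated replicates 1 and 2. These values rest on 5 fragments in all. The higher levels with fragments on this stretch of the chromosome were thus seen at Fpr1 and Fpr2, and no other gene of it was measured at more than a few FPKM.

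Genes that act with the receptors were then followed in 9 lists ordered by role, from ligands to regulators. Of 129 genes in the files, 107 were tested beside all other genes. Of these, 1 was called higher and 0 were called lower by limma with Benjamini-Hochberg adjustment, against 0.317% and 0.0769% of all genes. At an unadjusted p under 0.05 there were 19, against 970 of all 10398 genes (9.33%). In the alternative fit on fragments divided by the library total, 10 of the 107 genes were called, all higher. Over all 10398 genes 279 were called in that fit (2.68%), 180 of them higher and 99 lower. Groups did not overlap for 25 genes that were higher (23.4%) and 7 that were lower (6.54%), against 9.03% and 6.88% of all genes. The median log2 difference of the 107 genes was 0.03, against 0.003 over all genes.

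Among protein ligands and their sources, Saa3 rose. Saa3 encodes a serum amyloid A made by macrophages, a protein family that binds Fpr2. It stood at 433, 454 and 349 FPKM in control replicates 1, 2 and 3, and at 3653, 3796 and 2935 FPKM in the stimulated ones. No stimulated library came near a control. The log2 difference was 3.07 ± 0.123 (SE, limma adjusted p = 9.7e-05), and it was called under all 17 alternatives, with adjusted p between 3.9e-15 and 0.0105. Saa1, Saa2 and Saa4 were listed at 0 in all libraries. Anxa1, whose product annexin A1 acts through Fpr2, was abundant in both groups, with 486 ± 29.3 FPKM in controls and 499.7 ± 37.4 FPKM with fragments (SD, n = 3 each), and its groups overlapped. Hebp1, whose product is cut to a peptide ligand of the family, went from 26.4 ± 2.09 to 39.9 ± 6.47 FPKM without overlap but did not pass (limma adjusted p = 0.269). App, the source of amyloid beta, went from 121 ± 6.09 to 132 ± 2.75 FPKM (limma adjusted p = 0.697). Of the 14 genes in the files 7 were tested, with a median log2 difference of 0.13, and the other 7, among them Ctsg (cathepsin G), Fam19a4 and Defb14, were at 0 throughout.

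No gene of lipid ligand synthesis passed the test. Alox5ap, the partner protein of 5-lipoxygenase, stood at 451 ± 21.7 FPKM in controls and 513 ± 49.4 FPKM with fragments, without overlap (limma adjusted p = 0.538). Lta4h, which makes leukotriene B4, stood at 56.9 ± 9.04 and 55.2 ± 1 FPKM, with overlapping groups. The 4 tested genes of 7 had a median log2 difference of 0.09, and 0 had an unadjusted p under 0.05 in limma or a call in the fit on scaled fragments. Of all genes 9.33% and 2.68% did, and 9.03% were higher without overlap, so 4 genes are too few to read these counts.

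G protein subunits couple the receptors to the cell interior, and those present at the highest levels were Gnai2 and Gng5. Gnai2, the main inhibitory alpha subunit of leukocytes, stood at 327 ± 2.41 and 341 ± 19.8 FPKM, and Gng5, a gamma subunit, at 313 ± 46.4 and 275 ± 34.6 FPKM, both with overlap. Gnai3, another inhibitory alpha subunit, had a log2 difference of 0.25 and Gnb2, a beta subunit, one of 0.14, without overlap (limma adjusted p of 0.607 and 0.623). The alpha subunit genes Gnai1, Gnao1 and Gnaz averaged at most 0.318 FPKM in either group and were not tested. Of 9 tested subunits 0 had an unadjusted p under 0.05 in limma or a call on scaled fragments, and the median log2 difference was -0.01. The shares of all genes were 9.33% and 2.68%, and 9.03% were higher without overlap. With 9 genes nothing is read from these counts.

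Genes that switch the receptors off did not pass the test either. Arrb2, an arrestin that binds activated receptors, was at 158 ± 15.5 and 166 ± 13 FPKM. Rgs10, a GTPase-activating protein, was at 234 ± 6.95 and 263 ± 38.9 FPKM. Adrbk2, a G protein-coupled receptor kinase, and Rgs16 did not overlap between the groups, with log2 differences of 0.54 and 1.03 (limma adjusted p of 0.638 and 0.706), but both were below 5 FPKM. The 14 tested genes had a median log2 difference of -0.01, with 0 at an unadjusted p under 0.05 in limma and 0 calls on scaled fragments. Of all genes 9.33% and 2.68% reached these, and 9.03% were higher without overlap. With 14 genes nothing is read from the counts of 0.

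Of the 25 tested signalling effectors 6 did not overlap between the groups, all of them higher with fragments. Over all genes 9.03% were higher without overlap. Fgr, a Src family kinase of myeloid cells, stood at 31.2, 31.3 and 33.4 FPKM in the controls and at 54.9, 50.9 and 43.8 FPKM with fragments, a log2 difference of 0.63 ± 0.14 (SE, limma adjusted p = 0.136). It passed on scaled fragments, with a limma adjusted p of 0.00192. Mapk14, the stress kinase p38 alpha, Prkcb, a protein kinase C, Limk1, which acts on actin through cofilin, and Dock2, a Rac activator, had log2 differences of 0.32, 0.27, 0.39 and 0.12. Cdc42 and Mapk3, the most abundant of the list, overlapped between the groups. The list had 0 calls and a median log2 difference of 0.03, with 3 genes at an unadjusted p under 0.05, against 9.33% of all genes.

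The receptors set off the phagocyte oxidase. In FPKM over all transcripts its subunits had the highest median of the 9 lists, at 0.28 over 5 genes. Cybb, the catalytic subunit, stood at 482, 463 and 434 FPKM in the controls and at 583, 580.1 and 511 FPKM with fragments. Its groups did not overlap, and its log2 difference of 0.28 ± 0.0737 (SE) did not pass (limma adjusted p = 0.232), though it did on scaled fragments (limma adjusted p = 0.00126). Cyba, its membrane partner, stood at 748, 837 and 832 against 1665, 979.9 and 862 FPKM, with stimulated replicate 1 far above the other libraries and a log2 difference of 0.48, and Ncf4, a cytosolic subunit, had a log2 difference of 0.36 (limma adjusted p of 0.625 and 0.285). Of 5 subunits 2 had an unadjusted p under 0.05, against 9.33% of all genes. The log2 difference of Cyba was 0.16 on scaled fragments and -0.01 on reference transcripts alone. List medians were not computed on those, so the rank of this list holds for FPKM over all transcripts only.

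Of the ectoenzymes that degrade peptide ligands 1 of 4 was expressed enough to be tested. Anpep, aminopeptidase N, stood at 208 ± 6.43 FPKM in controls and 176 ± 11 FPKM with fragments, lower without overlap (log2 difference -0.24 ± 0.08 SE, limma adjusted p = 0.396). Dpp4 averaged 0.183 FPKM with fragments and was at 0 in the controls, and Mme was at 0 in all libraries.

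Fpr1 and Fpr2 were set beside 26 tested genes for other receptors. The list was named for chemoattractant and inhibitory G protein-coupled receptors, but it also holds receptors of other kinds, such as those for prostaglandins. Of these 26 genes 6 were higher and 4 lower without overlap, against 9.03% and 6.88% of all genes, and 0 passed the limma test. An unadjusted p under 0.05 was found for 8, against 9.33%, and 4 passed on scaled fragments, against 2.68% in either direction. Gpr84, a receptor for medium-chain fatty acids, stood at 4.83, 2.99 and 1.01 FPKM in the controls and at 23.0, 18.8 and 17.2 FPKM with fragments. The controls rested on 9 fragments in all. The log2 difference of 2.93 ± 0.498 (SE) missed the threshold (limma adjusted p = 0.075), and it passed under 5 of 17 alternatives, with adjusted p from 8.84e-05 to 0.311. Cx3cr1, the fractalkine receptor, went from 6.37 ± 1.2 to 13.3 ± 1.93 FPKM (log2 difference 1.06, limma adjusted p = 0.134). Cmklr1, the chemerin receptor, Ccrl2, which also binds chemerin, Ptger4, a prostaglandin receptor, and Ptgir, the prostacyclin receptor, had log2 differences of 0.40, 0.65, 0.83 and 0.58. Receptors that were lower without overlap included those for chemokines and complement. Ccr2 went from 13.4 ± 1.55 to 7.76 ± 0.872 FPKM (log2 difference -0.78, limma adjusted p = 0.211), and Cxcr4 and C3ar1 had log2 differences of -0.28 and -0.16. The list median was -0.03.

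Transcription factors of myeloid genes ended the lists. Spi1, which encodes PU.1, stood at 308 ± 15.1 and 306 ± 7.61 FPKM, with overlap. Nfkb2, a subunit of NF-kappa-B, stood at 33.2, 30.8 and 30.0 FPKM in the controls and at 49.1, 53.1 and 45.7 FPKM with fragments (log2 difference 0.65 ± 0.132 SE, limma adjusted p = 0.117). Hif1a, the oxygen-regulated factor, went from 21.2 ± 1.83 to 32.5 ± 0.524 FPKM (log2 difference 0.61, limma adjusted p = 0.176). Both passed on scaled fragments, with limma adjusted p of 0.00522 and 0.00672. Cebpa and Atf3 were lower without overlap, with log2 differences of -0.23 and -0.14. Of 16 tested genes 0 passed in the test on FPKM and 3 had an unadjusted p under 0.05, against 9.33% of all genes. The list median was 0.07.

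**Figure D4:**
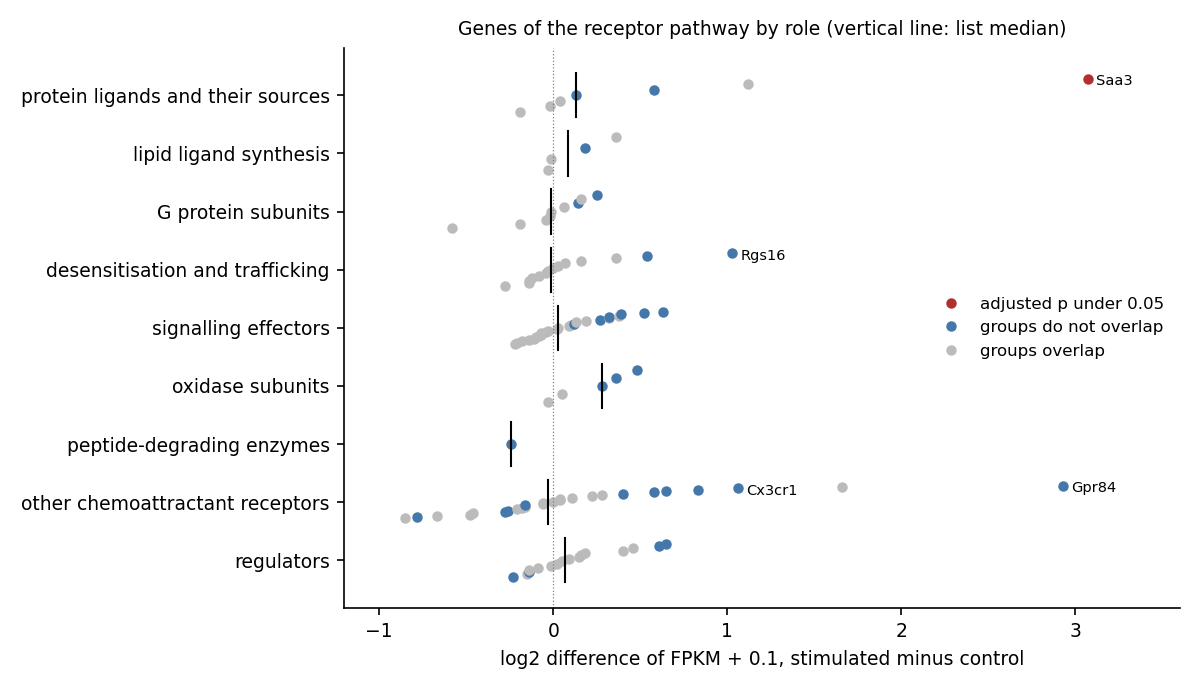
Log2 difference, stimulated minus control, of each tested gene in the 9 lists, 1 list per row. Red points passed at an adjusted p under 0.05, blue points had groups that did not overlap, grey points overlapped, and short vertical lines are list medians. Saa3, at 3.07, is the single red point, Gpr84 lies at 2.93, and the list medians lie between -0.24 and 0.28.

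The genes whose profile over the 6 libraries was most like that of each receptor were found by Pearson's r of log2(FPKM + 0.1) among the other 7570 genes that averaged 5 FPKM or more. The 6 libraries fall into 2 groups, so that any gene with separate groups gets a high r, and 199 genes reached 0.9 with Fpr1 and 202 with Fpr2. Most like Fpr1 were Nfkb2 (r = 0.997), Blvrb, a biliverdin reductase (0.995), Gtf3c6, a subunit of a general transcription factor (0.994), the complement gene C3 (0.993) and Marcksl1 (0.992). C3 stood at 40.3, 42.0 and 31.1 FPKM in the controls and at 102, 105 and 80.2 FPKM with fragments, highest in replicate 2 and lowest in replicate 3 of the stimulated cultures, as Fpr1 was. Most like Fpr2 were Saa3 (r = 0.998), Clec4e, a C-type lectin that senses dead cells (0.996), Pilra, an inhibitory immunoglobulin-like receptor (0.994), Ugt1a6b, a glucuronosyltransferase (0.992), and the scavenger receptor gene Marco (0.992). Clec4e went from 25.6 ± 6.57 to 139 ± 29.6 FPKM, a level near that of Fpr2 in both groups, and Marco from 25.8 ± 7.08 to 391 ± 35.8 FPKM. Ugt1a6b was at 0 in the controls, and it shares exons with neighbouring genes of its family, so its value is uncertain. Fpr1 and Fpr2 had an r of 0.982 with each other, which placed Fpr2 at position 13 for Fpr1 and Fpr1 at position 22 for Fpr2.

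**Figure D5:**
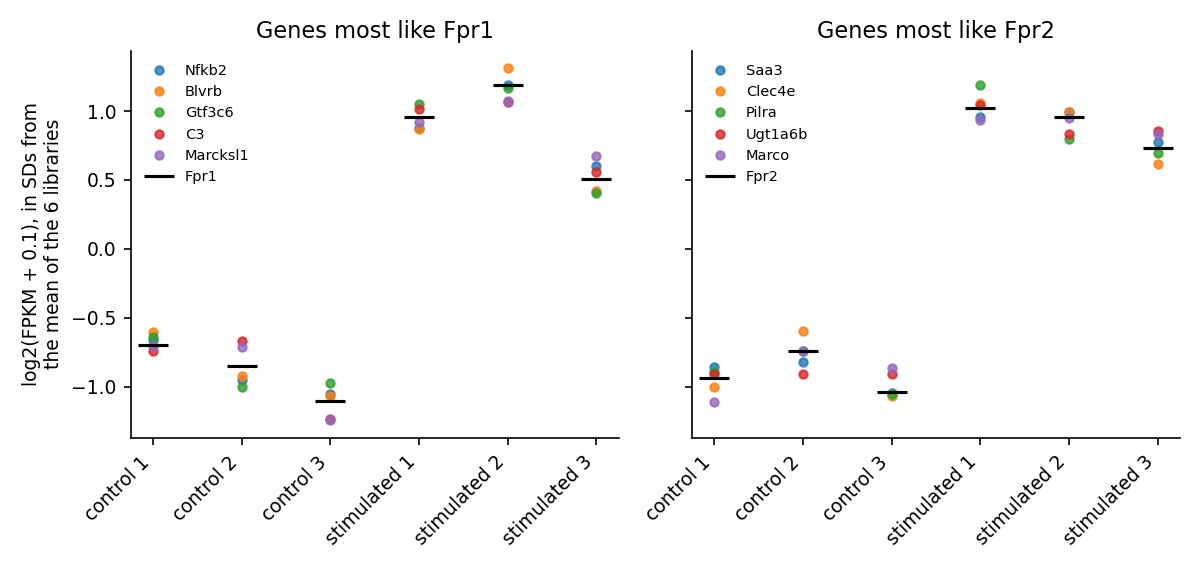
Log2(FPKM + 0.1) of the 5 genes most like Fpr1 (left) and Fpr2 (right), in standard deviations from the gene's mean over the 6 libraries. Black bars are the receptor and coloured points the other genes, all of which lie below 0 in the 3 controls and above 0 in the 3 stimulated libraries.

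The labelled cell type was checked against its markers. Macrophage genes were abundant in all libraries, with Csf1r at 613 and 617 FPKM on average and Cd68 at 1160.4 and 1248 FPKM in controls and stimulated cultures. Adgre1, which encodes the macrophage antigen F4/80, rose from 365 to 549 FPKM (log2 difference 0.59, limma adjusted p = 0.0082), a call kept under 11 of 17 alternatives. Fpr1 and Fpr2 are also strongly expressed by neutrophils and monocytes, so markers of those cells were set beside them. The neutrophil granule genes Elane, Mpo and Prtn3 were at or near 0 in all libraries, with at most 1.88 FPKM. Other granule genes were present, with Ngp at 62.8 and 62.4 FPKM on average, Ltf at 30.4 and 25.1 FPKM and Camp at 13.7 and 22.8 FPKM in controls and stimulated cultures, and so was the receptor gene Csf3r, at 65.2 and 76.2 FPKM, all with overlapping groups. Of 10 tested neutrophil markers 0 passed by limma. An unadjusted p under 0.05 was found for 2, against 9.33% of all genes, and 1 passed on scaled fragments, against 2.68%. S100a8 and S100a9 overlapped between the groups, Lcn2 was higher without overlap, at 39.9 and 56.4 FPKM, and Mmp8 lower, at 154 and 122 FPKM. The summed level of the 13 neutrophil markers ranged from 1105 to 1203 FPKM in controls and from 1003 to 1409 FPKM with fragments, most of it from S100a8 and S100a9, and these ranges overlapped. The part of neutrophils in the levels of Fpr1 and Fpr2 was not tested.

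The 5 monocyte markers summed to 48.2 to 69.3 FPKM in controls and 110 to 158 FPKM with fragments. That difference lay in Ly6c2, a surface antigen gene of inflammatory monocytes, at 28.7 and 115 FPKM on average (log2 difference 2.02, limma adjusted p = 0.0173). It was called under 10 of 17 alternatives. Its value depends on assembled transcripts, and on reference transcripts alone the log2 difference was -1.41 with a limma adjusted p of 0.89. Ccr2, the other defining marker, was lower with fragments. The part of monocytes in the levels of Fpr1 and Fpr2 was not tested. Fibroblast or stromal cell markers summed to 157 to 171 FPKM in controls and 106 to 122 FPKM with fragments. Col1a1 and Col1a2 were lower without overlap. Of 5 tested genes limma called 0, while 2 had an unadjusted p under 0.05, against 9.33% of all genes. On scaled fragments 2 were called, against 2.68% of all genes. Chondrocyte markers, which would come with RNA of the fragments, summed to at most 4.22 FPKM in controls and 2.82 FPKM with fragments over 10 genes, 5 of which were at 0 in all libraries. Dendritic cell markers summed to at most 3 FPKM and mast cell or basophil markers to at most 4.74 FPKM, while erythroid and lymphocyte markers were at 0.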

How the data were processed

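RNA-seq libraries of 3 control and 3 stimulated macrophage cultures were analysed, grouped by the labels. Per the methods, the authors used TopHat and Bowtie to map pairs of 100-bp reads to mm10, and Cufflinks and Cuffdiff to annotate them, and versions are not given in the sources used here. The deposited FPKM are Cufflinks values for 34535 reference transcripts and 1453 to 1654 assembled transcripts per library, and the deposited coverage is the mean read depth of each transcript. The authors name TMM and a filter on low FPKM, and low values were still in the files. The FPKM confidence bounds were not used for any result.

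Fragments were computed from FPKM, length and coverage, and 93.6% to 94.5% of low values lay within 0.05 of a whole number. Assembled transcripts were joined to the symbol of the named transcript of the same locus with the greatest overlap, and FPKM were summed per symbol. This rule was chosen after the values of the members had been seen: on reference transcripts alone 963 genes with a median of at least 5 FPKM were at 0 in a library, and 96 when joined. Genes that averaged 1 FPKM or more entered a two-sided limma test (limma 3.58.1, R 4.3.3, eBayes with trend and robust options) on log2(FPKM + 0.1), and p-values were adjusted by Benjamini-Hochberg over all of them, with a threshold of 0.05. With 3 libraries a group, an exact permutation test of a single value cannot go below 0.1. The procedure was tested on simulated data. Python 3.11.15, pandas 2.3.3, scipy 1.17.1 and Biopython 1.88 were used for tables, intervals and alignments.

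The members and lists were chosen with earlier results of these data known. Named in the text are the genes of the family, of each list the genes that passed, those with groups that did not overlap and at least the 2 most abundant, and the 5 genes most like each receptor, besides markers and some genes at 0, and a few genes that meet this rule are not reported here. Alternatives changed the pseudocount, filter, scaling, transcripts, moderation and replicate block or left out each library, and reference transcripts as scaled fragments were added after seeing the data. The replicate numbers recur in both groups, and same-numbered libraries did not deviate together. Gene models are from GENCODE vM21 and promoters from RefSeq, both on the build of the files.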

Additional observations from a re-analysis of the deposited data

Results flagged for a closer look

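Transcripts without a gene name, assembled at the Fpr2 locus, averaged 64.9 ± 7.29 FPKM (SD, n = 3) in the stimulated libraries and were at 0 in the controls. This was looked at again because these transcripts carry no gene name in the files and would be missed by a sum over named transcripts. The controls held 12 to 17 fragments at the locus, and the part of that depth in the difference was not tested.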

How the results depend on the processing

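Of 17 alternatives, 4 (both filters, plain moderation and the replicate block) cannot change the log2 difference of Fpr1 or Fpr2. Under the other 13 both stayed positive, with log2 differences of 1.66 to 2.01 for Fpr1 and 2.81 to 3.06 for Fpr2 when a library was left out. The size for Fpr2 was 1.94 on reference transcripts alone, 2.62 on scaled fragments and 1.90 on reference transcripts as scaled fragments, an alternative added after seeing the data. The difference between the genes, 1.10 with Fpr2 the larger, was 0.24 on reference transcripts alone and 0.23 on these as scaled fragments. Of all genes, 41 were called, and 19 on reference transcripts alone, 279 on scaled fragments, 19 without the trend and robust moderation, 18 with the replicate block and 14 on reference transcripts as scaled fragments. Leaving out 1 library gave 12 to 30 calls, with 27 without control replicate 1, 12 without stimulated replicate 1 and 20 without stimulated replicate 2. The block changed the call of no named list gene, and under it the markers Adgre1 (limma adjusted p = 0.0545) and Ly6c2 (0.0867) lost theirs. The alternatives on reference transcripts leave out the assembled transcripts of Fpr2 by construction, and for the counts the cause was not tested. Of 41 named list genes, 33 kept their direction under all alternatives and Saa3 its call. Among markers, Adgre1 lost its call without stimulated replicate 1 (limma adjusted p = 0.0735) or 2 (0.052), and Ly6c2 without control replicate 1 (0.0693) or stimulated replicate 1 (0.131) or 2 (0.101). Signs changed on reference transcripts alone for Arrb2 (-0.05), Cxcr4 (0.85), Cyba (-0.01), Dock2 (-0.06) and Lta4h (0.17), and on these as scaled fragments they were -0.02, 0.84, -0.02, -0.06 and 0.16. Spi1 was at 0.02 on scaled fragments. With a library left out Anxa1 ranged from -0.01 to 0.10, Arrb2 from -0.01 to 0.13, Lta4h from -0.17 to 0.05, Mapk3 from -0.10 to 0.01 and Spi1 from -0.04 to 0.03. The numbers of the libraries were shared by both groups, but same-numbered libraries had correlations of deviations of -0.00599, -0.0295 and -0.0261. Of the pair, depth limits Fpr2 in the controls more, at 12 to 17 fragments a library, and Gpr84 and Rgs16 rested on 9 and 4 fragments over all controls.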
